A study of Rattus norvegicus with 10 samples.

Results

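Cytosolic ribosomal protein genes were followed across 10 RNA libraries of the rat retinal pigment epithelium line RPE-J. The genes were taken by name: symbols beginning Rpl or Rps followed by a digit, together with Rplp0, Rplp1, Rplp2 and Rpsa, without kinases of the Rps6k family, Rps19bp1 and entries marked as pseudogenes. With reads required in all 10 libraries, 85 gene entries met the rule of 13391 genes, 51 of the large and 34 of the small subunit. The entries carry 79 distinct names, because 5 names stand on more than 1 entry. Rpl3l matched by name but did not have reads in all 10, and Rplp1 was not analysed here.

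The ribosome has a small subunit, which reads the messenger RNA, and a large subunit, which joins amino acids. Most ribosomal proteins are needed in the same number of copies, and surplus protein is degraded. Their messenger RNAs begin with a cytosine followed by a run of pyrimidines, the terminal oligopyrimidine or TOP motif, through which the kinase mTOR and the RNA-binding protein Larp1 set their translation and stability. Rpl5 and Rpl11 left outside ribosomes bind Mdm2 and so raise p53.

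RPE-J cells come from Long-Evans rats and are transformed with the virus SV40. In all groups they were grown at 33 °C in serum-containing medium, lifted with trypsin and sequenced after poly(A) selection. The groups were DMSO for 12 h as the vehicle control; PNU-282987, an α7 nicotinic acetylcholine receptor agonist (PNU from here on), at 100 nM for 30 min or for 1, 3, 8 or 12 h; nicotine at 1 µM for 1 h or 12 h; and MLA, the negative control, at 100 nM for 1 h or 12 h. DMSO was sampled at 12 h only. Each group was 1 library, so no difference between 2 libraries has a replicate check, and each one below describes those libraries and not the conditions.

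Reads in listed genes ran from 15218529 in PNU 8 h to 31503346 in MLA 12 h, with 29538641 in PNU 12 h. A level here is a normalised read count, scaled so that all libraries share 1 scale; it is not divided by transcript length, so levels compare libraries and not genes. Of 13 pigment epithelium markers 5 were measured: Best1 had a mean level of 5642, Krt8 of 3935, Pmel of 507, Mitf of 155 and Rlbp1 of 19.2. Rpe65, Otx2, Tyr, Tyrp1, Dct, Lrat, Ttr and Krt18 were not analysed here. Of the markers of other cells, Col1a1 at 31811 and Col3a1 at 10618 were the highest.

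The sequence around the annotated start is shown for 9 members whose values recur below, 15 bases before the start and 15 from it, 5′ to 3′ on the gene's strand. The sequences and starts are from RefSeq on build GRCr8, and capitals mark runs of at least 5 pyrimidines. The first 3 carry a cytosine and 4 more pyrimidines from the annotated start onwards, the next 3 carry pyrimidine runs placed otherwise, and the last 3 are paralogs.
Rpl37a (chr9:81748076-81748105, plus strand): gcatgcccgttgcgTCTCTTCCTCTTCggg
Rpl22 (chr5:168117946-168117975, plus strand): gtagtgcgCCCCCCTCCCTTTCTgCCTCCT
Rps27 (chr2:177964592-177964621, minus strand): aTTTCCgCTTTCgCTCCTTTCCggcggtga
Rps28 (chr7:15311319-15311348, minus strand): gcaTCCCCTgctcacgtgaCTCCTCTCCgc
Rps21 (chr3:187724023-187724052, plus strand): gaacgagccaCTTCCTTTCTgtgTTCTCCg
Rps2 (chr10:14251833-14251862, plus strand): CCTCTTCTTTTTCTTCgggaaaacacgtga
Rpl22l1 (chr2:113683181-113683210, plus strand): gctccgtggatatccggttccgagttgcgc
Rps27l (chr8:76443643-76443672, plus strand): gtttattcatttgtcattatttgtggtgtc
Rpl7l1 (chr9:21695703-21695732, plus strand): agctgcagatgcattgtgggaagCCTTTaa
Of the 79 names 62 were found in the RefSeq promoter table. A cytosine followed by 4 pyrimidines stood at the annotated start of 20 of the 62, or 32.3%, against 2.63% of all 27457 promoters in the table. A run of at least 8 pyrimidines lay inside the window of 20 bases either side of the start in 66.1% of members and in 15.5% of all promoters. The letters CTTTCC, searched in that window, were found on the gene's strand in 17 members, or 27.4%, against 1.79% of all promoters, and on the opposite strand in 1.61% and 1.73%. CTCTTC was found on the gene's strand in 16.1% of members and 1.98% of all promoters. Over the whole 300 bases and both strands, CTTTCC was present in 51.6% and 26.4%. The 2 motifs were chosen after the sequences were seen, 25 members held at least 1 of them near the start and 2 held both, and a match is a description of the letters only.

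Members fell into 2 ranges of level. The upper range held 64 entries with mean levels from 2231 (Rpl22l1) to 78148 (Rplp0), 36 of the large and 28 of the small subunit. The lower range held 21 entries from 16.7 to 561 (Rpl30), and 7 of these were below 50. Several names in the lower range encode core ribosomal proteins, among them Rps6, Rps18, Rps19, Rps29, Rpl8, Rpl9, Rpl37, Rpl38, Rpl39 and Rplp2. Many ribosomal protein genes have near-identical copies in the genome, and whether reads shared by copies were counted is not given in the sources used here, so single values are uncertain. Counting error alone had a median SD of 0.18 on the log2 scale in the lower range and 0.010 in the upper.

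Of the 5 shared names, 3 had entries in both ranges: the Rpl21 entries had mean levels of 32438, 20.6 and 16.7, the Rpl32 entries of 22737 and 248, and the Rps4x entries of 32320 and 303. The Rps27a entries, at 36954 and 4508, were both in the upper range, and the Rpl7a entries, at 106 and 77.5, both in the lower. Of 7 measured pairs of parent and paralog, 2 had members in both ranges. Rps18l1 held between 99.2% and 99.5% of the reads of Rps18 and Rps18l1 in the 10 libraries, and Rpl36al between 99.5% and 99.7% of those of Rpl36a and Rpl36al. In both of these pairs the named parent was the entry with few reads. Rpl35a and Rpl35al1 were both in the lower range, and the other 4 pairs, described below, in the upper. Counts below use the 78 members whose mean level reached 50 and, where stated, the 64 of the upper range.

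The 4 highest mean levels were those of Rplp0, the base of the ribosomal stalk, at 78148, Rps2, which lines the path of the messenger RNA, at 67430, Rpsa, also known as the laminin receptor precursor, at 46411, and Rps3, also described in DNA repair, at 41963. Rplp0 had a level of 79818 in DMSO 12 h, of 75431 after 30 min of PNU and then of 80249, 74472, 72946 and 88576 at the later PNU times, of 80058 and 77504 in nicotine 1 h and 12 h, and of 78272 and 74156 in MLA 1 h and 12 h. It was highest in PNU 12 h and lowest in PNU 8 h. Rpsa and Rps3 had the same highest library, Rpsa with 52410 there and its lowest level, 41259, in PNU 8 h, and Rps3 with 45564 there and its lowest level, 37042, in PNU 3 h. Rps2 differed from these: it was highest in nicotine 1 h at 76951, followed by PNU 3 h at 73393 and PNU 12 h at 71305, and lowest in nicotine 12 h at 60788.

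Ribosomal protein genes were taken by name, so any copy listed under another name is outside their share of the reads. This share was 7.01% in PNU 12 h, the highest of the 10 libraries, and 5.63% in PNU 8 h, the lowest. In between were PNU 3 h at 5.68%, PNU 30 min at 5.88%, MLA 12 h at 6.00%, nicotine 12 h at 6.10%, MLA 1 h at 6.17%, DMSO 12 h at 6.18%, PNU 1 h at 6.43% and nicotine 1 h at 6.50%. Exact binomial 95% intervals, which cover counting error only since reads are not independent molecules, ran from 7.001% to 7.019% in PNU 12 h and from 5.62% to 5.64% in PNU 8 h. The spread between cultures of 1 condition was not measured, so which neighbours in this order differ cannot be told.

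Relative to its own mean over the 10 libraries, the median member was 0.21 higher on the log2 scale in PNU 12 h, where 73 of 78 were above their mean. It was 0.17 lower in PNU 8 h with 5 of 78 above, 0.11 lower in PNU 3 h with 12 above, and 0.082 lower in PNU 30 min with 7 above. The median lay above the mean in nicotine 1 h by 0.088 with 65 members above, in PNU 1 h by 0.071 with 69 above and in MLA 1 h by 0.040 with 51 above. MLA 12 h was 0.056 lower with 12 above, and DMSO 12 h and nicotine 12 h sat near the mean, at 0.017 with 48 above and at 0.0011 with 39 above. The scaling centres the median gene, so the median over all 11190 genes at this level was within 0.0054 of its mean in each library. For the median member the order of the PNU libraries in time was low, high, low, low and high. In such bulk samples fewer cells of a type and less RNA per cell cannot be told apart.

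**Figure D1:**
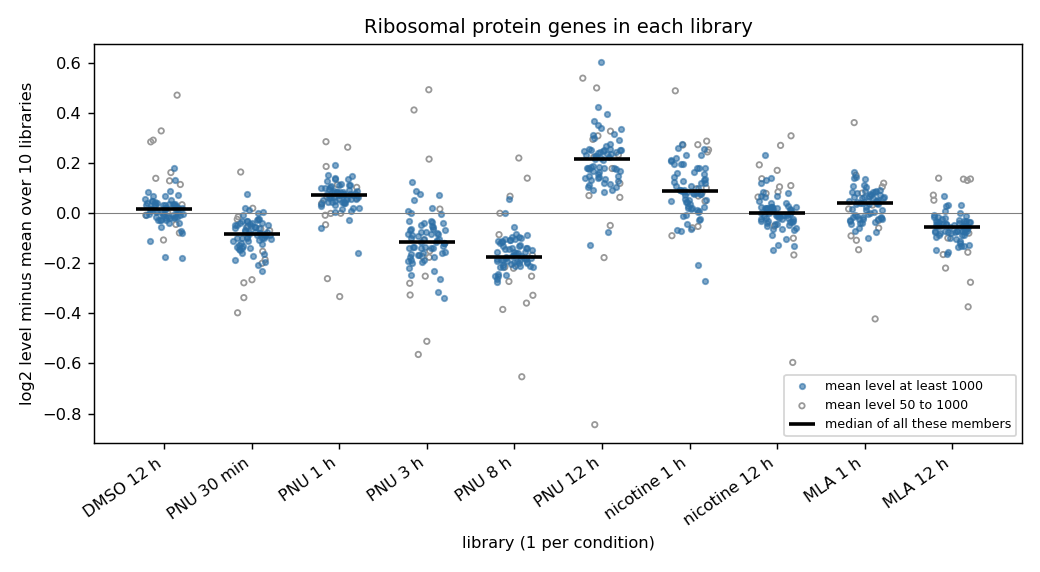
Log2 level of each ribosomal protein gene minus its own mean over the 10 libraries (vertical axis) in each library (horizontal axis); filled points are the 64 members whose mean level reached 1000, open points those between 50 and 1000, and bars the median of all 78. The PNU 12 h cloud sits at a median of 0.21 and the PNU 8 h cloud at -0.17, while the open points scatter more widely.

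PNU 12 h was the highest library for 57 of the 78 members, and for 11.1% of all 11190 genes. PNU 8 h was the lowest library for 47 members and PNU 3 h for 20, against 12.2% and 12.6% of all genes. In the upper range 50 of 64 were highest in PNU 12 h and 58 of 64 lowest in PNU 8 h or PNU 3 h. PNU 8 h was the shallowest library, PNU 12 h the second deepest, and the deepest, MLA 12 h, lay below the mean. Of markers of other cells, 2 of 3 immune markers were measured and summed to 260 in PNU 12 h, the highest of the libraries, to 192 in PNU 8 h, the lowest, and to between 206 and 245 in the others. Tubb3, the 1 of 4 neuron markers measured, was at 321 in PNU 12 h and 253 in PNU 8 h. Its highest level was 330 in nicotine 1 h and its lowest 245 in nicotine 12 h. Other marker sums ran the other way between these libraries. The measured fibroblast markers summed to 37555 in PNU 12 h and 40987 in PNU 8 h. The measured glia markers summed to 1412 and 1541, and the measured pigment epithelium markers to 9879 and 10250. The part of depth and of these markers in the ribosomal protein levels was not tested.

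The range from lowest to highest library had a median of 0.42 on the log2 scale in the upper range, against 0.38 over the 5009 genes at such levels. Most of the variation was shared by the members. Their median SD over the libraries was 0.13, and 0.058 around the shift that they shared. The SD from counting alone was 0.010. Rps15a with a range of 0.43 and Rpl36 with 0.43 stood just below and just above the median of the 78, which was 0.43. Over all 11190 genes whose mean level reached 50 the median range was larger, at 0.46.

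Rps28, a small-subunit protein near the exit of the messenger RNA, had the widest range of the upper 64 at 0.94. Its level was 10134 in DMSO 12 h, 10217, 12506, 9040, 10439 and 17369 in the PNU series taken in order of time, 11470 and 11271 in nicotine 1 h and 12 h, and 12110 and 11491 in MLA 1 h and 12 h. PNU 12 h stood 1.39-fold above the next library, PNU 1 h, and the other 9 libraries lay between 9040 and 12506. Rps21, a small-subunit protein, had 7794 in DMSO 12 h, 7301, 8790, 7649, 7323 and 11318 in the PNU series, 9168 and 8191 in nicotine 1 h and 12 h, and 9083 and 8350 in MLA 1 h and 12 h. Rpl41, among the smallest and most basic proteins of the ribosome, had 40296 in DMSO 12 h, 34117, 41374, 36849, 35099 and 50995 in the PNU series, 44882 and 39123 in nicotine 1 h and 12 h, and 41905 and 37979 in MLA 1 h and 12 h. Both had PNU 12 h as the highest and PNU 30 min as the lowest library, with PNU 8 h next to lowest. Rps21, Rps27 and Rpl41 are described because they had wide ranges in the upper set, a choice made after their values were seen.

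At the other end Rpl7, a large-subunit protein that binds RNA, had the narrowest range of all 78, at 0.19, with 32404 in DMSO 12 h, 30558, 31962, 29975, 29628 and 33745 in the PNU series, 33349 and 32174 in nicotine 1 h and 12 h, and 31870 and 30897 in MLA 1 h and 12 h. It nevertheless had the common order, with PNU 12 h highest and PNU 8 h lowest. Rpl13a followed with a range of 0.25, then Rps3a with 0.27 and Rpl10 with 0.28. All of these had PNU 12 h as the highest library.

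**Figure D2:**
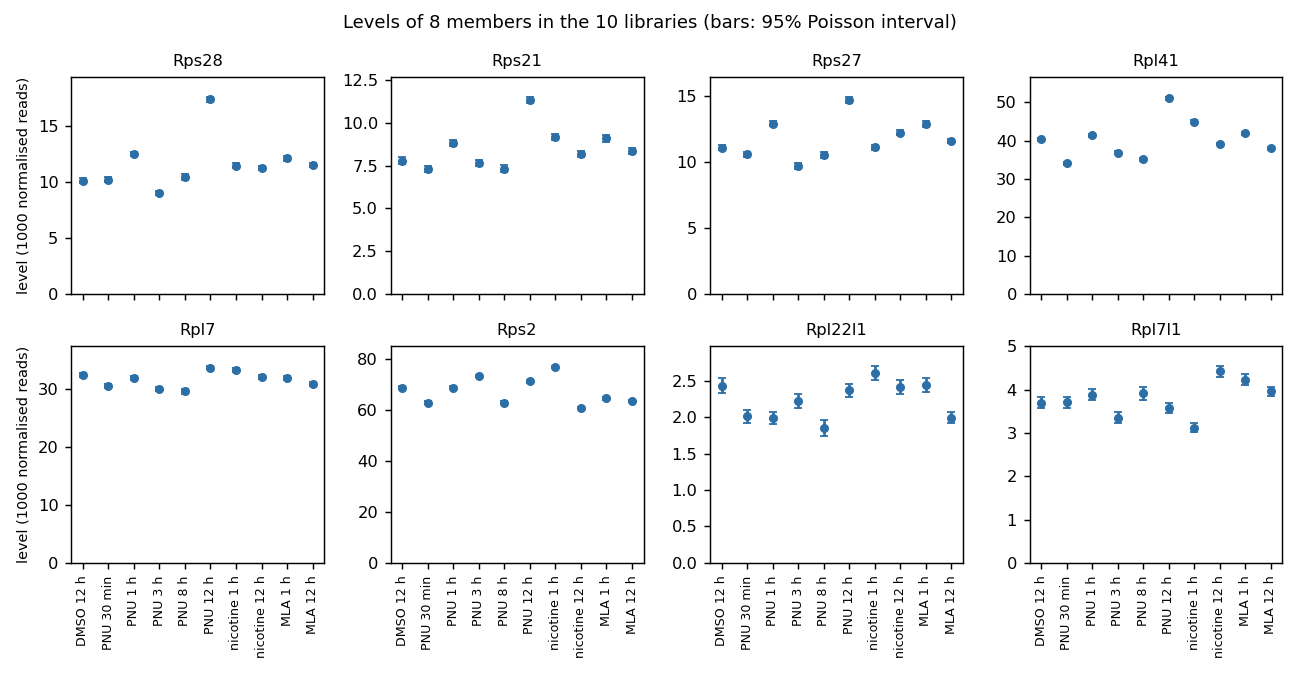
Level in units of 1000 normalised reads (vertical axes, from 0) of 8 members in the 10 libraries (horizontal axes), each point 1 library with its exact Poisson 95% interval, which covers counting error only. Rps28, Rps21, Rps27 and Rpl41 peak in PNU 12 h, Rpl7 is nearly level, and Rps2, Rpl22l1 and Rpl7l1 have other orders.

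The 5 other members of the 6 with the widest ranges of the 78 all belonged to the lower range. Rpl35al1, a paralog of Rpl35a, had a range of 1.32, with 95.02 in DMSO 12 h, 76.8, 78.0, 54.7, 68.5 and 38.2 in the PNU series, 71.9 and 73.7 in nicotine 1 h and 12 h, and 70.4 and 75.3 in MLA 1 h and 12 h. It was lowest in PNU 12 h, opposite to most members, on 47 reads there with an exact Poisson 95% interval of its level from 28.0 to 50.8. Rplp2, an acidic protein of the stalk, had a range of 1.096 and was highest in PNU 12 h at 114 and lowest in nicotine 12 h at 53.2, on 140 and 57 reads. Rps29 had a range of 1.01, an Rpl7a entry (ENSRNOG00000047737) of 0.92, and Rps6, the substrate of S6 kinase, of 0.88 with 230 in PNU 12 h and 125 in PNU 30 min. Ranges of these members include the counting error given above.

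At 12 h the 3 compounds differed in how ribosomal protein genes stood against DMSO. In PNU 12 h 70 of 78 members were higher than in DMSO 12 h, where 51.3% of all genes were, with a median log2 difference of 0.18, or 1.14-fold. At least 1.1-fold higher were 47 members and at least 1.1-fold lower 4, against 22.8% and 23.7% of all genes. Rps28 was 1.71-fold higher (17369 against 10134, log2 0.78, exact binomial 95% interval from 0.74 to 0.81), Rps21 1.45-fold (log2 0.54, from 0.50 to 0.58), Rps27 1.33-fold and Rpl41 1.27-fold. Rplp0 was 1.11-fold higher and Rps2 1.03-fold. The large subunit had a median of 0.21 and the small of 0.19 in the upper range.

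The 3 members of the upper range that were not higher in PNU 12 h than in DMSO 12 h were the Rps27a entry ENSRNOG00000034246, at 4112 against 5099, Rpl7l1, at 3575 against 3697, and Rpl22l1, at 2365 against 2433. The intervals of Rpl7l1 and Rpl22l1 reached across 0. Rps27a is made as a fusion of ubiquitin with a small-subunit protein, and its other entry, with 41083 in PNU 12 h against 38566 in DMSO 12 h, was higher. Only Rpl35al1 passed 2-fold, in the direction of lower, where 0.554% of all genes passed it either way.

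In nicotine 12 h 28 members were higher and 50 lower than in DMSO 12 h, with a median of -0.019, and 50% of all genes were higher. At least 1.1-fold higher were 8 members and lower 8, against 23.8% and 23.3% of all genes. Rps2 was 1.13-fold lower and Rpl13 1.12-fold lower, whereas Rpl7l1 was 1.197-fold and Rps9l1 1.19-fold higher. In MLA 12 h 14 members were higher and 64 lower, with a median of -0.085, and 48.8% of all genes were higher. There 5 members were at least 1.1-fold higher and 16 lower, against 22.3% and 19.4% of all genes. The members lower by that much were near the share of all genes, and those higher were a smaller share. Scaled by the total of reads in listed genes, the median in MLA 12 h was -0.055. Rpl22l1 had the largest difference of the upper range there, 1.22-fold lower, and Rps28 was 1.13-fold higher. These 3 comparisons share the DMSO library.

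**Figure D3:**
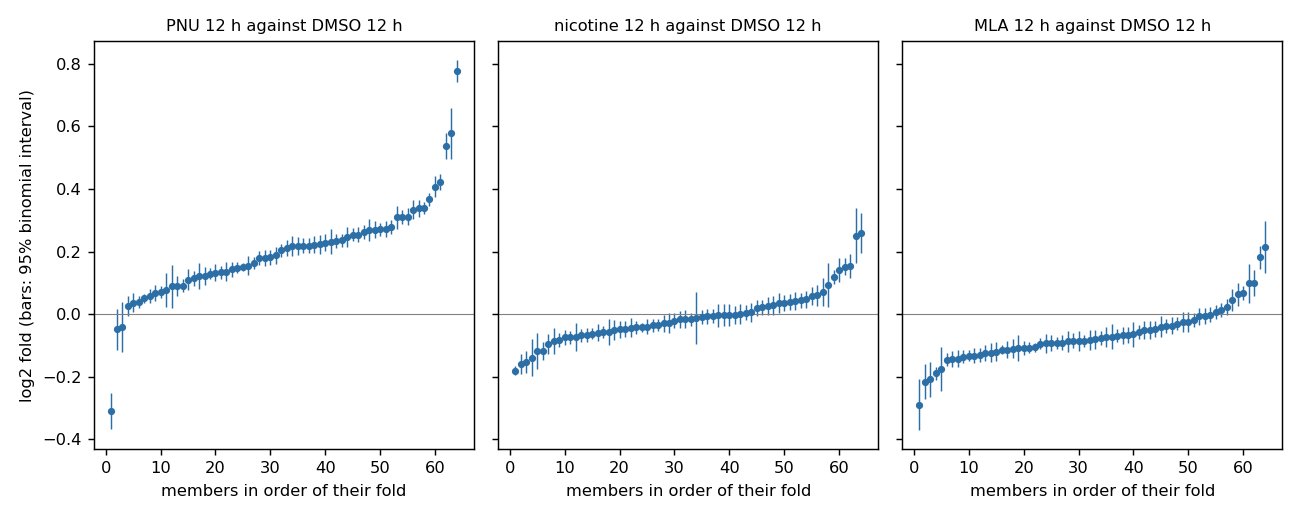
Log2 fold against DMSO 12 h (vertical axis) of the 64 members whose mean level reached 1000, in order of their fold (horizontal axis), for PNU, nicotine and MLA at 12 h; bars are exact binomial 95% intervals of the reads. In PNU 12 h 61 members lie above 0, in nicotine 12 h 23 and in MLA 12 h 10.

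Set directly against each other at 12 h, PNU was higher than MLA for 72 of 78 members and 50.4% of all genes, with a median of 0.27 or 1.202-fold. At least 1.1-fold higher were 70 members and lower 4, against 22.2% and 24.5% of all genes. PNU 12 h was higher than nicotine 12 h for 70 members and 53.4% of all genes, with a median of 0.21. Of the members 51 were at least 1.1-fold higher and 5 lower, against 31% and 28.5% of all genes. PNU 12 h was above each of the other 3 libraries of 12 h for 68 of 78 members and for 30.8% of all genes. Rps28, at 17369, stood 1.51-fold above MLA 12 h and 1.54-fold above nicotine 12 h. Rpl7l1 ran the other way, 1.11-fold and 1.24-fold lower.

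At 1 h the compounds lay closer together. PNU 1 h was higher than MLA 1 h for 57 of 78 members and 49.9% of all genes, with a median of 0.040, and 3 members were at least 1.1-fold higher and 1 lower, against 18.8% and 20.9% of all genes. Of PNU 1 h and nicotine 1 h, 38 members were higher in PNU and 40 in nicotine, and 51.9% of all genes were higher in PNU. At least 1.1-fold higher in PNU were 7 and lower 17, against 34.2% and 30.4% of all genes. Rpl22l1 was 1.31-fold and Rpl13 1.18-fold lower in PNU 1 h than in nicotine 1 h, while Rps9l1 was 1.32-fold, Rpl7l1 1.24-fold and Rps27 1.16-fold higher.

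The difference from 1 h to 12 h had opposite signs by compound. PNU was higher at 12 h than at 1 h for 71 of 78 members and 50.6% of all genes, with a median of 0.13. Of the members 38 were at least 1.1-fold higher and 4 lower, against 21.1% and 22.3% of all genes. Nicotine was higher at 12 h for 25 members and lower for 53, with a median of -0.087, and 49.5% of all genes were higher. Of the members 5 were at least 1.1-fold higher and 27 lower, against 36.5% and 36.4%. The members lower by that much were thus no larger a share than that of all genes, and those higher a smaller one. MLA was higher at 12 h for 9 members and lower for 69, with a median of -0.086, and 48.2% of all genes were higher. Here 2 members were at least 1.1-fold higher and 19 lower, against 20.8% and 20.3%. Scaled by total reads the median of MLA was -0.042. In nicotine Rpl13 was 1.32-fold, Rpl17 1.31-fold and Rps2 1.27-fold lower at 12 h, and Rpl7l1 was 1.42-fold higher.

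Along the PNU series the median member moved by turns. PNU 1 h was higher than PNU 30 min for 74 of 78 members and 48% of all genes, with a median of 0.14, 41 at least 1.1-fold higher and 1 lower, against 12.6% and 14.8% of all genes. PNU 3 h was higher than PNU 1 h for 11 members and 49.4% of all genes and lower for 67 members, with a median of -0.17, 5 at least 1.1-fold higher and 50 lower, against 31% and 32.1%. PNU 8 h was higher than PNU 3 h for 23 members and 47.8% of all genes and lower for 55 members, with a median of -0.059, 7 at least 1.1-fold higher and 20 lower, against 28.3% and 30.4%. This median was -0.0017 when libraries were scaled by total reads. The 20 lower members were a smaller share than the 30.4% of all genes. PNU 12 h was higher than PNU 8 h for 75 members and 49.3% of all genes, with a median of 0.37 or 1.29-fold, 73 at least 1.1-fold higher and 2 lower, against 27.8% and 29.2%. This last step was the largest of the 14 comparisons made. Rps28 was 1.66-fold, Rps21 1.55-fold, Rpl41 1.45-fold and Rpl7 1.14-fold higher in PNU 12 h than in PNU 8 h, and Rpl7l1 was 1.096-fold lower.

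A pair of fits across all 11190 genes used libraries of different compounds or times as replicates. For 12 h against 1 h over PNU, nicotine and MLA, with compound as a term, limma called 0 genes and 0 of the 78 members at a Benjamini-Hochberg adjusted p of 0.05. The lowest adjusted p of a member was 1.00, and 56 genes, or 0.5% of them, but 0 members had an unadjusted p under 0.05. The members' median was -0.016, with 28 above 0, against a median of 0.0073 over all genes. It was -0.082 with 11 above 0 without PNU, 0.020 with 48 above without nicotine, and 0.027 with 50 above without MLA, so its sign depended on the compounds included. For PNU and nicotine against MLA over both times, with time as a term, limma also called 0 genes and 0 members, with 88 genes, or 0.786%, and 0 members at an unadjusted p under 0.05. The lowest adjusted p of a member was 0.996. Here the members' median was 0.10 against 0.0029 over all genes, and 73 of 78 were above 0. Without the 12 h libraries it was 0.043 with 55 above 0, and without the 1 h libraries 0.17 with 75 above. Without the PNU libraries, which leaves nicotine against MLA, it was 0.071 with 63 above, against -0.0032 over all genes. The share of all genes above 0 was not counted in either fit, so the counts of members above 0 have none beside them. Rps28 had a log2 difference of 0.13 with an SE of 0.17, and Rpl41 of 0.14 with an SE of 0.12. Without the nicotine libraries, which leaves 1 residual degree of freedom and a spread taken wholly from the trend over genes, limma called 565 genes, or 5.05%, and 2 members, Rps28 at 0.32 with an adjusted p of 0.00795 and Rps9l1 at 0.24 with an adjusted p of 0.0380. The authors' deposited tables each set 1 library against 1. Their p-values rest on no replicate and are not used here.

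In a decomposition of the 64 upper members, each centred on its own mean, a first component held 74.3% of the variance. Its largest weights were PNU 12 h at 0.68 and PNU 8 h at -0.47, and 63 of 64 members took part with the same sign, the exception being Rpl7l1. A second component held 14.4% and set nicotine 1 h, with a weight of 0.64, and PNU 3 h, with 0.54, apart from the other 8 libraries. Members relatively high in the mean of those 2 libraries included Rpl17, Rpl13, Rps2 and Rpl18. They were 0.21, 0.21, 0.20 and 0.19 higher there on the log2 scale than in the mean of the other 8. In nicotine 1 h alone they were 0.30, 0.32, 0.23 and 0.27 higher. In PNU 3 h alone they were 0.12, 0.095, 0.17 and 0.11 higher. Relatively low in the same mean were Rps9l1, Rpl7l1, Rps28, Rps27, Rpl24 and Rps4x, which were lower by 0.33, 0.27, 0.21, 0.21, 0.19 and 0.18 respectively. In nicotine 1 h alone they stood at -0.27, -0.32, -0.037, -0.11, -0.10 and -0.080 against the other 8. In PNU 3 h alone they stood at -0.38, -0.22, -0.38, -0.31, -0.27 and -0.28. Of the 2 libraries, Rps28 was low mainly in PNU 3 h. Rpl13, for example, had its highest level, 19451, in nicotine 1 h, above 18068 in PNU 12 h.

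The fibroblast markers were also high in those 2 libraries. The 2 of 7 that were measured, Col1a1 and Col3a1, summed to 59371 in PNU 3 h and 57136 in nicotine 1 h and to between 32317 and 44952 in the other 8. Their part in the second component was not tested. Of 4 glia markers 3 were measured and summed to 1978 in PNU 3 h and 1701 in nicotine 1 h, within or above the 1389 to 1729 of the others.

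**Figure D4:**
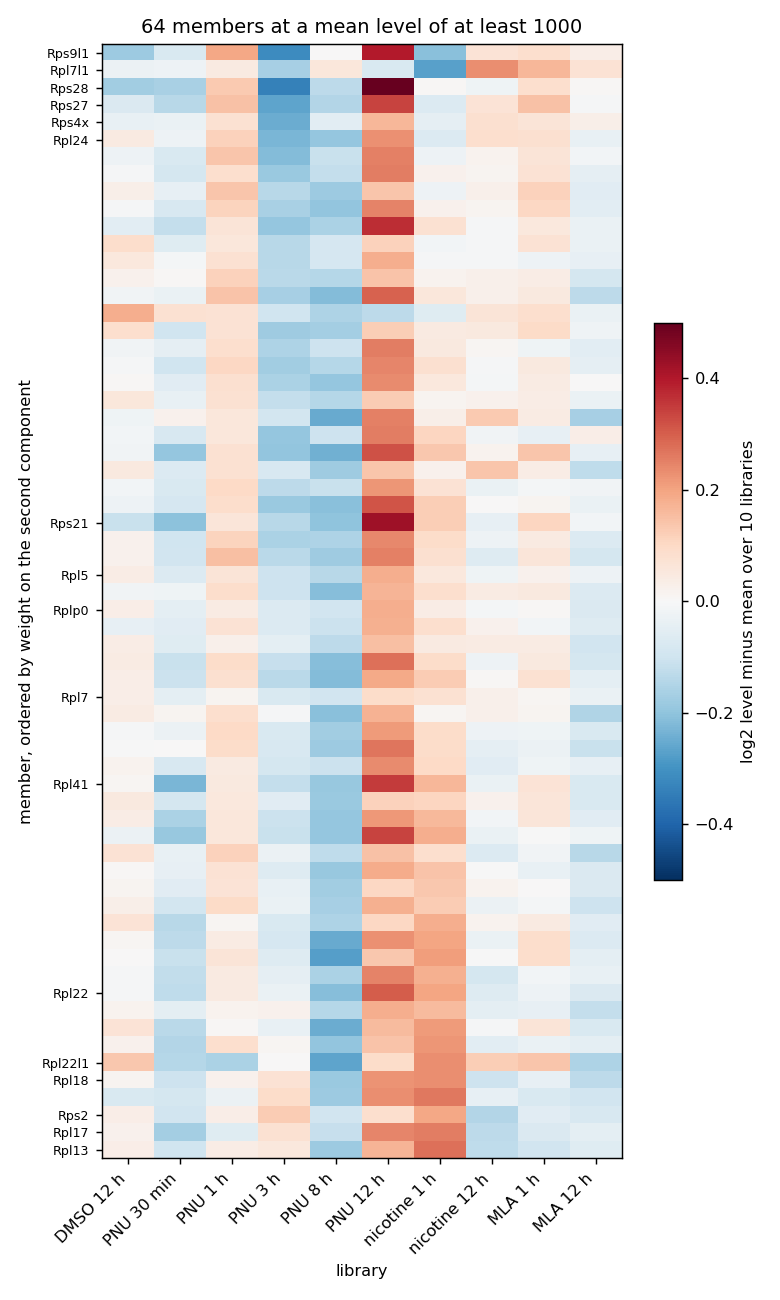
Log2 level minus the member's mean over 10 libraries (colour) for the 64 members whose mean level reached 1000 (vertical axis, ordered by their weight on the second component, with some members labelled) in each library (horizontal axis). PNU 12 h is red and PNU 8 h blue for nearly every member, while PNU 3 h and nicotine 1 h turn from blue at the top to red at the bottom.

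The likeness of a member's profile to the median of the other upper members, as Pearson's r over the 10 libraries, had a median of 0.92. All members share the libraries and their depth, so r is a description here. It was highest for the main Rpl21 entry at 0.99, Rpl5 at 0.99 and Rps15 at 0.98. It was lowest for Rpl7l1 at -0.17, the lesser Rps27a entry at 0.093, Rps2 at 0.46, Rps9l1 at 0.57, Rpl22l1 at 0.59 and Rpl17 at 0.64. Of these, 3 are paralogs of a ribosomal protein and 1 is an entry that shares its name.

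Of the 7 paralogs in the upper range, Rpl7l1, Rps9l1 and Rpl22l1 had the low r values given above, while Rps27l had 0.82, Rps10l1 0.84, Rps18l1 0.96 and Rpl36al 0.97. Rpl7l1 had 3697 in DMSO 12 h, 3707, 3884, 3355, 3917 and 3575 in the PNU series, 3125 and 4425 in nicotine 1 h and 12 h, and 4225 and 3958 in MLA 1 h and 12 h. It was highest in nicotine 12 h and lowest in nicotine 1 h, where its parent Rpl7 had 32174 and 33349. Rpl22l1 had 2433 in DMSO 12 h, 2009, 1985, 2220, 1847 and 2365 in the PNU series, 2608 and 2412 in nicotine 1 h and 12 h, and 2439 and 1990 in MLA 1 h and 12 h. Rpl22, its parent and in mouse a repressor of its expression, had 10001 in DMSO 12 h and ran from 8674 in PNU 8 h to 12393 in PNU 12 h. Of the reads of the pair, Rpl22l1 took 16.0% in PNU 12 h (exact binomial 95% interval from 15.5% to 16.6%), 16.1% in PNU 1 h, and between 17.2% and 20.1% in the other 8 libraries.

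Rps27l, which in human is a target of p53, had 3177 in DMSO 12 h, 2927, 3236, 2904, 2717 and 3381 in the PNU series, 3115 and 3386 in nicotine 1 h and 12 h, and 3150 and 2814 in MLA 1 h and 12 h. It shared its lowest library, PNU 8 h, with most members and was nearly equal in nicotine 12 h and PNU 12 h. Its parent Rps27 had 11117 in DMSO 12 h, 10609, 12931, 9721, 10536 and 14749 in the PNU series, 11131 and 12259 in nicotine 1 h and 12 h, and 12914 and 11615 in MLA 1 h and 12 h. Rps27l took between 18.6% and 23.0% of the reads of the pair, the least in PNU 12 h and the most in PNU 3 h. Rps10l1, with a mean of 4761, took between 33.5% and 37.3% of the reads of Rps10 and Rps10l1. Rps9l1 ranged from 1804 in PNU 3 h to 2958 in PNU 12 h, Rps15al4 had a mean of 18.2, and Rps9 itself was not analysed here.

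The start sequences can be read against these levels. Of the 50 upper entries with a start in RefSeq, 15 had a cytosine and 4 pyrimidines at the annotated start, with a median log2 difference between PNU 12 h and PNU 8 h of 0.41 and a range from 0.27 to 0.53. The 35 others had a median of 0.36 and ranged from -0.13 to 0.73. The 2 upper Rps27a entries share a name and so a start. The split rests on the annotated base alone, so it does not tell which members have the TOP motif. Among the 35 others were Rps23 and Rps2, with runs of 21 and 20 pyrimidines in the window around that base. The groups overlapped, and both the lowest value, of Rpl7l1, and the highest, of Rps28, were without such a start. None of the starts shown for Rpl22l1, Rps27l and Rpl7l1 had it, and the longest pyrimidine runs inside their windows were of 4, 3 and 5 bases.

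Other genes of the translation machinery were described from lists. Of 15 genes from a list of other TOP messenger RNAs, whose starts were not searched here, 13 were above their mean in PNU 12 h. Their median was 0.067 there and -0.085 in PNU 8 h. Of all genes, 50.3% were above their mean in PNU 12 h and 50.1% in PNU 8 h. Between PNU 12 h and PNU 8 h, 8 of the 15 were at least 1.1-fold higher and 0 lower, against 27.8% and 29.2% of all genes. Eef1d, an exchange factor of elongation, was 0.32 higher on the log2 scale, while Eef1a1, the carrier of aminoacyl-tRNA, was at 190163 and 197820 and Eef2, which moves the ribosome along, at 53122 and 54069. The median of the ribosomal protein genes for the same difference was 0.37. Of 24 initiation factors, the median of the same difference was 0.063, and Eif4g1, the scaffold of the cap complex, was lower in PNU 12 h by a log2 difference of -0.44.

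Of 50 ribosome biogenesis genes, 40 were above their mean in PNU 12 h with a median of 0.061, and 28 in PNU 8 h with a median of 0.028. Ddx21, a nucleolar helicase, was at 9385 in PNU 12 h and 11939 in PNU 8 h, and Tsr2, which escorts a small-subunit protein, at 494 and 347. Of 18 genes of MYC and mTOR control, 10 were above their mean in each of the 2 libraries, and Larp1 was at 2670 and 3349. Of 10 genes of the p53 response, 4 were above in PNU 12 h and 5 in PNU 8 h, and Zmat3 was at 111 and 183.

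Genes of mitochondria had medians near those of the ribosomal protein genes. Of 39 nuclear genes of oxidative phosphorylation, 37 were above their mean in PNU 12 h with a median of 0.18, and 0 in PNU 8 h with a median of -0.17. Of 47 mitochondrial ribosomal protein genes, 46 were above in PNU 12 h with a median of 0.17 and 2 in PNU 8 h with a median of -0.14. Between the 2 libraries 36 of the 39 and 41 of the 47 were at least 1.1-fold higher in PNU 12 h and 0 of either list lower, against 27.8% and 29.2% of all genes. Cox5b, a subunit of cytochrome oxidase, was at 5916 and 4035, and Mrpl34 at 456 and 288.

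**Figure D5:**
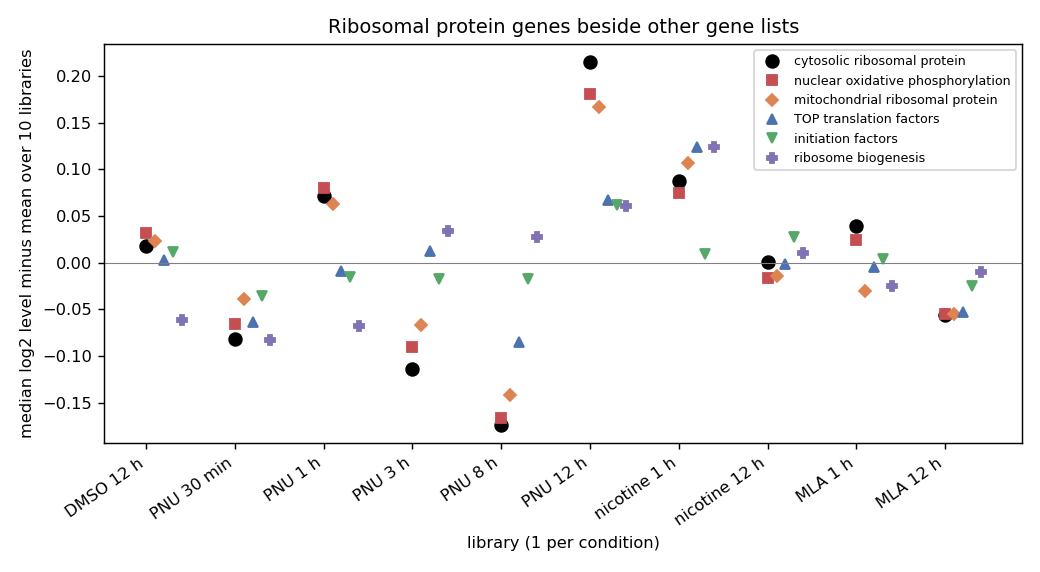
Median log2 level minus the mean over 10 libraries (vertical axis) of the cytosolic ribosomal protein genes and 5 other lists in each library (horizontal axis). In PNU 12 h and PNU 8 h the medians of oxidative phosphorylation and mitochondrial ribosomal protein genes lie near those of the ribosomal protein genes, and those of initiation factors and ribosome biogenesis nearer 0.

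Among 9081 other genes whose mean level reached 200, 93 had a profile over the 10 libraries with an r to the median ribosomal protein profile above the members' own median of 0.92. The 6 most alike were Swi5, a factor of homologous recombination, with 0.994, Ndufa2, a subunit of respiratory complex I, with 0.989, Atp5mf, a subunit of ATP synthase, with 0.987, Lgals1, a galactoside-binding lectin, with 0.986, Ndufs5, also of complex I, with 0.983, and Txndc17, a thioredoxin-like protein, with 0.980. Lgals1, whose mean level was the highest of the 6, was at 31755 in PNU 12 h and 23846 in PNU 8 h, its highest and lowest levels.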

How the data were processed

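RNA from RPE-J cells was sequenced in 10 libraries, 1 per group. Per the submitters' processing notes the tools were Trimmomatic 0.36, STAR 2.5.2b, featureCounts, Subread 1.5.2 and DESeq2; build, annotation and strand are each "not given in the sources used here". There are 39 tables from the authors, of 13015 to 13781 genes, each for a pair of libraries. Per the file headers each deposited table holds the p-value with its adjusted form, the log2 fold change and 1 level per library. The deposited level is a signal that behaves as reads divided by a size factor set anew in each table. The log2 ratio of levels equalled the deposited log2 fold change within 5.36e-05. Levels were divided by their smallest step, and 100% of the quotients, taken as reads, were whole to within 0.01. These served for scaling and for counting intervals, and 0 gene values conflicted between tables of a library. The planned count tests of edgeR and DESeq2 were not run, because the deposited columns did not meet the condition set for a count model. Columns with no sample numbered 0. Library numbers of 9 samples came from file records, and the remaining number was given to PNU 12 h.

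All 10 libraries were scaled together by the median of ratios over 13391 of the 14119 genes, those with reads in every library. Members whose mean level reached 50 were counted past 1.1-fold and 2-fold beside the 11190 genes at that level; a second limit of 1000 separated the ranges of level. Fits used limma 3.58.1 (R 4.3.3) with trend on log2(level + 1), adjusted over all genes, and were tested on simulated data. Other steps used Python 3.11.15, pandas 2.3.3, numpy 2.4.6, scipy 1.17.1 and matplotlib 3.10.9. Sequences were matched to RefSeq by symbol. Nothing says the libraries of a fit came from like cultures, so p-values measure only the spread between these libraries.

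The members, the 14 lists with 269 genes and the tests were chosen with earlier results of these data known. The text names, among members whose mean level reached 50, the 6 members with the widest and the 4 with the narrowest range, those next to the median range, the 4 highest levels, stalk proteins and Rpsa, paralogs with their parents, the 6 other genes with the most alike profile, and up to 4 genes of a list by their difference between PNU 12 h and PNU 8 h. Members named for their difference in a comparison or their weight on a component, and Eef1a1 and Eef2, were chosen after their values were seen. Alternatives covered scaling, the level limit, paralogs, shared names, pseudocount, terms of the fit and libraries left out. Some genes that this rule or a component would name are not reported here.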

Additional observations from a re-analysis of the deposited data

Results flagged for a closer look

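The difference between 12 h and 1 h had opposite signs in the 3 compounds. The median log2 difference of the 78 ribosomal protein genes was 0.129 in PNU, with 71 of 78 higher at 12 h, but -0.0868 in nicotine, with 53 lower, and -0.0860 in MLA, with 69 lower. Of all genes, 50.6% in PNU, 49.5% in nicotine and 48.2% in MLA were higher at 12 h. In nicotine, members at least 1.1-fold lower were no larger a share than that of all genes. Each compound had 1 library at each time, so the difference between compounds was not tested.

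Against the same DMSO library the median was 0.184 in PNU 12 h, with 70 of 78 members higher, and -0.0854 in MLA 12 h, with 64 of 78 lower. Of all genes, 51.3% were higher than in DMSO in PNU 12 h and 48.8% in MLA 12 h. The difference between PNU and MLA was not tested either.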

How the results depend on the processing

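Over 16 results, 111 alternatives were computed, of which 105 left the result in place and 0 reversed it. For the fits the result was the number of members called, which was 0 and so could not reverse. The sign of the members' median in the time fit did change with the compounds left out, as given above. A sign change of a median that lay within counting error was not counted as a reversal. Scaling by the total of reads in listed genes, which moved a library by at most 0.032 on the log2 scale (PNU 8 h), gave medians of -0.055 for MLA 12 h against DMSO 12 h, -0.042 for MLA 12 h against MLA 1 h, 0.22 for PNU 12 h against MLA 12 h, -0.0017 for PNU 8 h against PNU 3 h and 0.32 for PNU 12 h against PNU 8 h. Across the 14 comparisons the limit of 1000, all levels, paralogs left out, shared names left out (an alternative chosen after seeing the data) and scaling without ribosomal protein genes moved a median by at most 0.024; the levels of the pair's own table, given for 12 of the comparisons, moved it by at most 0.022. Leaving out a compound or time gave 0 to 0 members called for 12 h against 1 h and 0 to 2 for agonists against MLA, the 2 being those called without nicotine. Without nicotine the time fit called 482 genes and 0 members. The TMM factors and tests of edgeR and the test of DESeq2 were not run. By replicate number, no paired analysis was possible because that number is 1 in every group; the fits blocked on compound or time instead, and without that term they also called 0 members. Depth gives precise levels for the 64 upper members but not for the 21 others, and 1 library per group leaves the spread between cultures unknown.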
